A study of Mus musculus with 15 samples.

Results

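The expression of 10 genes of fibroblast growth factor (FGF) signaling was followed in bulk RNA-seq of 15 cultures of dissociated cerebellar cells from C57BL/6 mouse pups. In all groups the pups were taken between postnatal days 0 and 4. The genes were taken by symbol: the ligands *Fgf1* and *Fgf2*, the receptors *Fgfr1*, *Fgfr2* and *Fgfr3*, the Sprouty genes *Spry1*, *Spry2* and *Spry4*, and the ETS transcription factors *Etv4* and *Etv5*. They are 10 of the 35142 genes to which transcripts could be assigned, and all 10 passed the filter on low counts that left 15360 genes for testing. After 14 days in vitro, 5 cultures were left unstimulated, 5 received recombinant murine IL-12p70 at 30 ng/ml and 5 received it at 100 ng/ml, for 18 h before RNA was taken. All cultures were of wild-type cells, with no transgene or deletion named in the labels. The labels give replicate numbers 1 to 5 in each group but do not say whether replicates came from separate litters or preparations, so p-values measure the spread between these cultures. The libraries held 25746096 to 38435850 reads assigned to transcripts.

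FGF ligands bind receptor tyrosine kinases together with heparan sulfate, and the receptors pass the signal through the adaptor FRS2 and the GRB2-SOS complex to RAS, RAF, MEK and ERK. In the brain, FGF2 is made mainly by astrocytes and acts on glia and neural progenitors, and FGFR3 is known as an astrocyte receptor. Sprouty proteins are made in response to the pathway and damp it, and ETV4 and ETV5 are transcription factors whose genes are switched on by it, so that their transcripts are used as readouts of FGF signaling.

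The cultures held RNA of several cell types. Markers of astrocytes and Bergmann glia, microglia and mature oligodendrocytes summed to mean levels of 4253, 9279 and 7857 TPM (transcript levels scaled for length and depth) in unstimulated cultures, and those of cerebellar neurons to 324 TPM. Of the neuronal markers, the Purkinje cell gene *Pcp2* was near 0, whereas *Calb1*, the gene of calbindin, stood at 17.0 TPM in unstimulated cultures. In such bulk samples, a change in the number of cells of a type and a change in RNA per cell cannot be told apart.

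IL-12 at 30 ng/ml was accompanied by higher transcript levels of 4 of the 10 genes (*Fgf2*, *Fgfr1*, *Spry2* and *Spry4*), against 7.87% of all genes tested that changed in either direction and 4.16% that rose. They are a ligand, a receptor and 2 Sprouty genes, and the rises were small, between 13.4% and 31.2%. At 100 ng/ml, 0 of the 10 genes passed the same threshold (an FDR under 0.05 in edgeR's quasi-likelihood test), against 9.77% of all genes. Neither the ETV genes nor *Fgf1*, *Fgfr2*, *Fgfr3* or *Spry1* passed the threshold at either concentration. The comparisons of 30 and of 100 ng/ml share the 5 unstimulated cultures.

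The sequences ahead of the main transcripts were read from GRCm39 and searched for motifs, among them that of the STAT proteins, through which IL-12 is known to signal. Whether STAT proteins act on these genes was not tested. The 250 bases before the start of the transcript with the most reads are shown for 3 of the 4 genes that rose, in the direction of the gene, with capitals at matches to the STAT motif TTCNNNGAA on either strand.
Fgf2 (chr3:37402245-37402494, plus strand, before Fgf2-208): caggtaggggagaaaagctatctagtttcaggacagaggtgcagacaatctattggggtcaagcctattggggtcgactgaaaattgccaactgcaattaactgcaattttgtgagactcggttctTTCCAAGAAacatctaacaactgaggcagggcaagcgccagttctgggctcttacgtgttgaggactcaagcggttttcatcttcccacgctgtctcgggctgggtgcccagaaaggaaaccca
Fgfr1 (chr8:26008495-26008744, plus strand, before Fgfr1-202): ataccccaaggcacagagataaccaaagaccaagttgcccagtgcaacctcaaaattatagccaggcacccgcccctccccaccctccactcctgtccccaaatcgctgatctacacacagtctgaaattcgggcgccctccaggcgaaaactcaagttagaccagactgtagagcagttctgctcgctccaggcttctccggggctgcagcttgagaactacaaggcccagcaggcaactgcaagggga
Spry2 (chr14:106134793-106135042, minus strand, before Spry2-201): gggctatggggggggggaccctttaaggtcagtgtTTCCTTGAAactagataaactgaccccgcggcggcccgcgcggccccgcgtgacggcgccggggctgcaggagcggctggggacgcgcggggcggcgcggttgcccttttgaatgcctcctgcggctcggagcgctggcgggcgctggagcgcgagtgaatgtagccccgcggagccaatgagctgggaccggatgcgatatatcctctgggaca

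By the annotation, the *Fgf2* window lies in introns of *Gm43439* and of the antisense gene *Fgf2os*, and its last 22 bases are exonic in Fgf2-209, an *Fgf2* transcript that starts earlier. The *Fgfr1* window is intronic in Fgfr1-212 and the *Spry2* window in Spry2-205 and Spry2-202, longer transcripts of the same genes. In windows of 300 bases (250 before to 50 after the start), TTCNNNGAA was found at -124 in *Fgf2*, at -215 in *Spry2* and at -17 in *Spry4*, counted to its first base from the start, and in none of the other 7 genes. Of 14183 such windows of protein-coding genes tested, 7.40% held it. The longer form with 4 bases between TTC and GAA was found in *Fgfr2* alone of the 10 genes and in 6.08% of all windows, the AP-1 motif TGANTCA in *Etv5* alone and in 5.59%, and the ETS motif CCGGAAGT and the CRE motif TGACGTCA in 0 of the 10 genes and in 6.07% and 2.89%. A match of letters is a description of the window and not a binding site.

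The genes themselves lie apart. *Fgf2* (ENSMUSG00000037225) spans chr3:37402473-37464257 on the plus strand, *Fgfr1* (ENSMUSG00000031565) chr8:26003670-26066824 on the plus strand, *Spry2* (ENSMUSG00000022114) chr14:106128766-106136446 on the minus strand and *Spry4* (ENSMUSG00000024427) chr18:38719300-38736025 on the minus strand. Each ligand has a Sprouty gene as its neighbor. *Spry1* starts 229.6 kb beyond the end of *Fgf2* on chromosome 3, with 1 protein-coding gene (*Afg2a*) between them, and on chromosome 18, where both genes lie on the minus strand, 235.7 kb separate the end of *Fgf1* from the start of *Spry4*, with 0 protein-coding genes between them. In neither neighborhood did both genes pass the threshold.

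*Fgf2*, the gene of basic FGF, rose most. In unstimulated replicates 1 to 5 it stood at 76.6, 69.2, 69.2, 58.2 and 70.9 CPM (read counts scaled to a common depth with TMM factors), at 30 ng/ml at 93.5, 93.7, 97.2, 79.2 and 88.4 CPM, and at 100 ng/ml at 71.9, 98.0, 76.9, 77.1 and 82.4 CPM. Every culture with 30 ng/ml lay above every unstimulated culture, whereas the cultures with 100 ng/ml overlapped both other groups, with replicate 2 the highest of all 15. The log2 fold change was 0.39 at 30 ng/ml (SE 0.08, FDR 0.00743 in edgeR, n = 5 per group), a level 1.31 times that of unstimulated cultures (95% interval 1.17 to 1.48). At 100 ng/ml it was 0.24 (SE 0.08) with an FDR of 0.0725 in edgeR. The direct comparison of 100 with 30 ng/ml gave -0.15 (95% interval -0.33 to 0.02), so a lower level at the higher concentration was not shown.

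*Fgf1*, the gene of acidic FGF, stood at 42.3 to 46.1 CPM in unstimulated cultures, 44.7 to 58.3 CPM at 30 ng/ml and 45.4 to 50.8 CPM at 100 ng/ml. The value of 58.3 CPM came from replicate 1 at 30 ng/ml, and the other 4 cultures of its group lay between 44.7 and 45.8 CPM. Its log2 fold changes were 0.11 (SE 0.06) at 30 ng/ml and 0.13 (SE 0.06) at 100 ng/ml, with FDRs of 0.359 and 0.224 in edgeR. Without that culture the first value was 0.02.

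**Figure D1:**
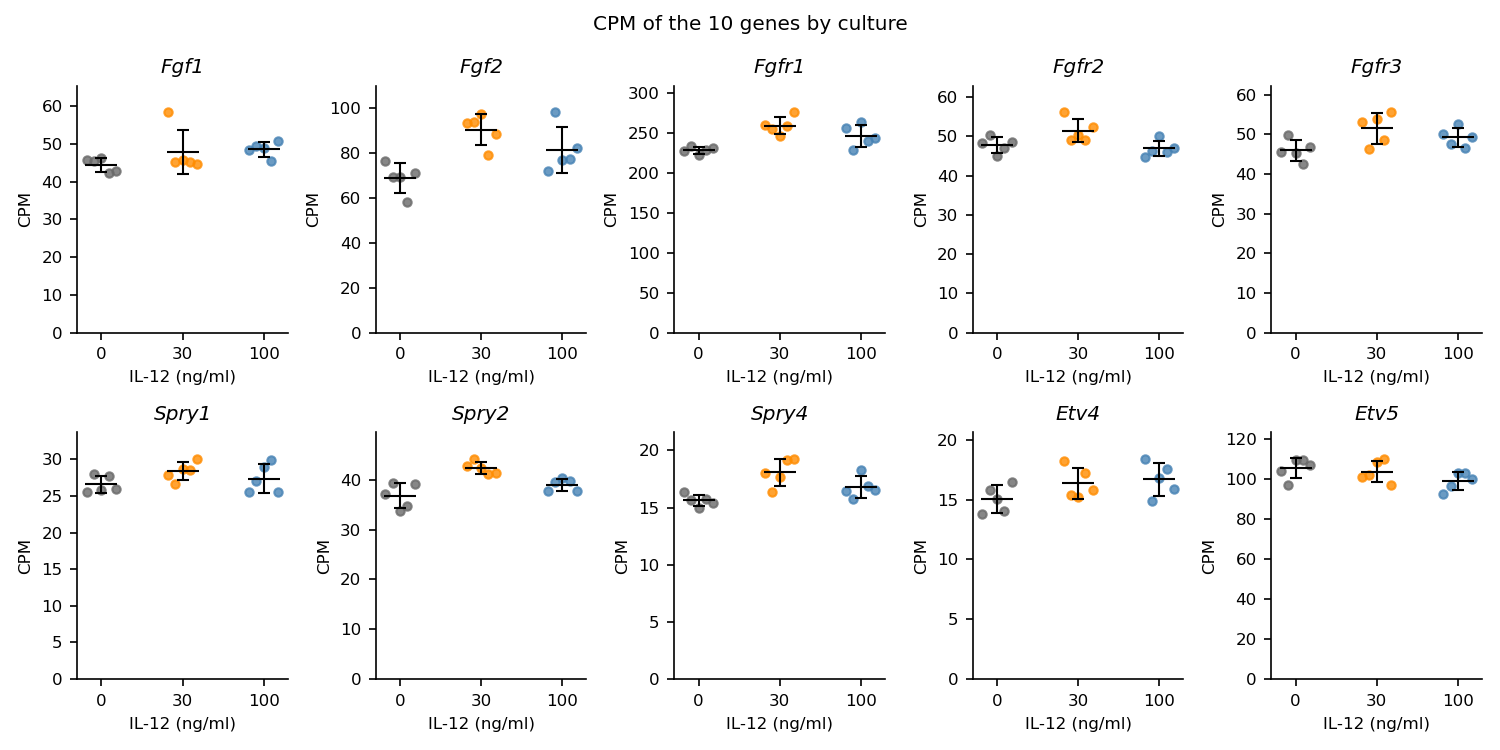
TMM-scaled CPM (linear axis from 0) of each of the 10 genes in 5 unstimulated cultures, 5 with 30 ng/ml and 5 with 100 ng/ml IL-12; points are cultures, black bars the mean and SD. The cultures with 30 ng/ml lie above all unstimulated cultures in *Fgf2*, *Fgfr1*, *Spry2* and *Spry4*, and in the other 6 genes the groups overlap.

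Among the receptors, *Fgfr1* had the highest level and was the receptor that rose. It stood at 226.5, 233.6, 222.2, 227.8 and 230.4 CPM in unstimulated replicates 1 to 5, at 260.1, 254.0, 245.7, 257.7 and 275.2 CPM at 30 ng/ml, and at 256.2, 228.0, 262.9, 239.8 and 243.4 CPM at 100 ng/ml. The unstimulated cultures were tightly grouped (SD 4.26 CPM), all 5 cultures with 30 ng/ml lay above them, and at 100 ng/ml replicate 2 fell among them. The log2 fold change was 0.18 at 30 ng/ml (SE 0.04, FDR 0.0149 in edgeR) and 0.11 at 100 ng/ml (SE 0.04, FDR 0.113 in edgeR). Without replicate 2 of the 100 ng/ml group, the FDR of *Fgfr1* at 100 ng/ml was 0.0248 in edgeR, which made it the only one of the 10 genes called there when that culture was left out. Leaving it out also raised the calls over all genes, from 1500 of 15360 to 2932 of 15328.

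*Fgfr3*, the receptor of astrocytes, stood at 42.5 to 49.9 CPM in unstimulated cultures, 46.2 to 55.5 CPM at 30 ng/ml and 46.5 to 52.7 CPM at 100 ng/ml. The difference at the lower concentration, 0.16 on the log2 scale (SE 0.06), was close in size to that of *Fgfr1* but more spread, with an FDR of 0.0825 in edgeR. It passed the threshold without unstimulated replicate 2 (0.0399) or replicate 2 at 30 ng/ml (0.0391). *Fgfr2*, whose product is found on glia and many epithelia, stood at 44.9 to 50.4, 49.1 to 56.1 and 44.8 to 50.2 CPM in the same order of groups. It differed by 0.10 (SE 0.05) at 30 ng/ml and by -0.03 (SE 0.05) at 100 ng/ml, and by -0.13 (SE 0.05, FDR 0.251 in edgeR) between 100 and 30 ng/ml, the lowest FDR of the 10 genes in that comparison.

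Of the Sprouty genes, *Spry2* and *Spry4* rose at 30 ng/ml. *Spry2* stood at 37.2, 39.3, 33.7, 34.8 and 39.1 CPM in unstimulated replicates 1 to 5, at 42.8, 44.2, 42.3, 41.1 and 41.3 CPM at 30 ng/ml, and at 37.7, 39.6, 40.3, 39.7 and 37.7 CPM at 100 ng/ml. All 5 values of the middle group exceeded those of the remaining 10 cultures, including the ones stimulated with 100 ng/ml. The share of all genes with such a separation between the concentrations was not counted. The log2 fold change was 0.20 at 30 ng/ml (SE 0.05, FDR 0.0136 in edgeR), 0.08 at 100 ng/ml (SE 0.05, FDR 0.287 in edgeR) and -0.12 between 100 and 30 ng/ml (95% interval -0.22 to -0.02, FDR 0.291 in edgeR). That last interval is not adjusted for the number of genes, and 0.579% of all genes passed the FDR threshold between the concentrations.

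*Spry4*, the least abundant of the 10 genes per length, stood at 16.3, 15.7, 14.9, 15.8 and 15.4 CPM in unstimulated replicates 1 to 5, at 18.1, 16.4, 17.7, 19.1 and 19.3 CPM at 30 ng/ml, and at 16.4, 15.7, 18.3, 16.9 and 16.5 CPM at 100 ng/ml. At 30 ng/ml replicate 2 lay just above the highest unstimulated culture and the other 4 well above it. The log2 fold change was 0.21 at 30 ng/ml (SE 0.05, FDR 0.0241 in edgeR) and 0.10 at 100 ng/ml (SE 0.05, FDR 0.255 in edgeR). The call at 30 ng/ml was the least stable of the 4. It was lost without replicate 1, 4 or 5 of that group or unstimulated replicate 3 or 5, with FDRs of 0.0509 to 0.0701 in edgeR. *Spry1* stood at 25.5 to 28.0, 26.7 to 30.0 and 25.5 to 29.9 CPM in unstimulated cultures and at 30 and 100 ng/ml, with log2 fold changes of 0.09 (SE 0.05) and 0.04 (SE 0.05).

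The ETV genes did not pass the threshold and pointed in different directions. *Etv4* stood at 13.8 to 16.5 CPM in unstimulated cultures, 15.2 to 18.3 CPM at 30 ng/ml and 14.9 to 18.4 CPM at 100 ng/ml. On the log2 scale it differed from unstimulated cultures by 0.13 (SE 0.07) and 0.16 (SE 0.07). *Etv5*, at 97.3 to 109.5, 97.3 to 110.2 and 92.4 to 102.9 CPM, had log2 fold changes of -0.02 (SE 0.05) and -0.09 (SE 0.05, FDR 0.221 in edgeR at 100 ng/ml). The intervals of the *Etv5* difference reached from -0.12 to 0.07 at 30 ng/ml and from -0.19 to 0.005 at 100 ng/ml. Whether FGF signaling itself changed was not tested.

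**Figure D2:**
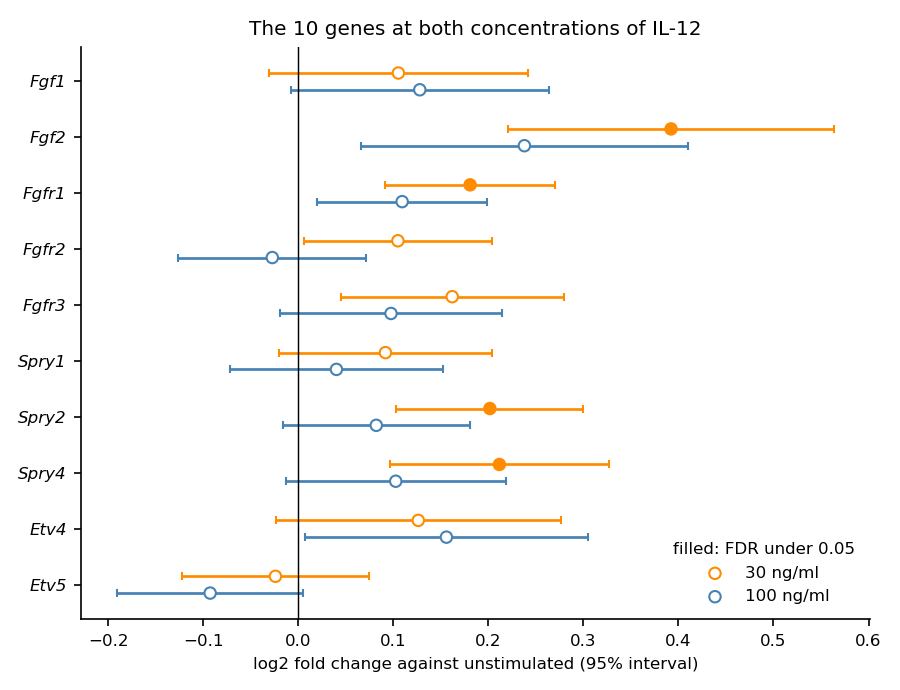
Log2 fold change against unstimulated cultures for the 10 genes at 30 and 100 ng/ml IL-12, with 95% intervals from edgeR's quasi-likelihood fit; filled points have an FDR under 0.05. *Fgf2* (0.39), *Fgfr1* (0.18), *Spry2* (0.20) and *Spry4* (0.21) are filled at 30 ng/ml, and no point is filled at 100 ng/ml.

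Across the 10 genes, the log2 fold change was positive in 9 at 30 ng/ml and in 8 at 100 ng/ml, with medians of 0.14 and 0.10, beside medians of 0.00014 and -0.0038 over all genes tested. At an unadjusted p under 0.05 in edgeR, 6 of the 10 genes differed at 30 ng/ml, 3 at 100 ng/ml (*Fgf2*, *Fgfr1* and *Etv4*) and 2 between the concentrations (*Fgfr2* and *Spry2*, both lower at 100 ng/ml). The share of all genes at that unadjusted p was not counted, so whether these counts exceed it is not known. In 4 of the 10 genes, the same 4 that were called, every culture with 30 ng/ml was above every unstimulated culture, against 5.44% of all genes. At 100 ng/ml this held for 0 of the 10 genes, against 4.34%. With both concentrations combined, the same 4 genes passed the threshold (11.9% of all genes did so, 6.71% as rises), with log2 fold changes of 0.32 for *Fgf2*, 0.15 for *Fgfr1*, 0.14 for *Spry2* and 0.16 for *Spry4*. In this comparison *Spry4* lost its call without any of 10 cultures and *Spry2* without any of 5 (FDR up to 0.107 and 0.104 in edgeR, both without unstimulated replicate 3), and *Fgfr1* without unstimulated replicate 3 (0.0533).

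Because FGF2 is made mainly by astrocytes and FGFR3 is known as an astrocyte receptor, the markers of glia were set beside the 10 genes. At 30 ng/ml the summed TPM of 11 markers of astrocytes and Bergmann glia ranged from 4628 to 5391, above the range of 3909 to 4370 in unstimulated cultures, a mean 16.1% higher (exact permutation test, two-sided, p = 0.00794, the smallest that 5 against 5 cultures allow; adjusted p = 0.0635 over 16 comparisons). At 100 ng/ml it was 9.23% higher (exact p = 0.0317, adjusted p = 0.102). Of the 11 markers, 3 rose at 30 ng/ml (*Aldh1l1*, *Slc1a3* and *Aldoc*) and 0 fell, with 8 positive log2 fold changes and a median of 0.14. In the 100 ng/ml group *Aldoc* rose and *Gja1* fell (-0.19, FDR 0.0168 in edgeR), with 4 of 11 positive and a median of -0.04. *Gfap*, the gene of an intermediate filament, held a large part of the sum: without it, the unstimulated cultures summed to 3561 ± 126 CPM (SD), those of the lower concentration to 3937 ± 193 CPM and those of the higher to 3613 ± 106 CPM. The summed microglial markers moved the other way, from a mean of 9279 TPM to a mean of 6993 TPM in the 30 ng/ml group (the same exact test, p = 0.00794 and 0.0635 after adjustment), where 7 of 11 of them fell. The higher concentration differed by -9.96% in that sum (exact p = 0.206, adjusted p = 0.343), where 0 of 11 passed the threshold. Mature oligodendrocyte markers differed by -20.1% at the higher concentration (exact p = 0.0397, adjusted p = 0.106) and by -9.34% at the lower one (exact p = 0.310, adjusted p = 0.440). Endothelial markers differed by -24.8% at the lower and -25.0% at the higher concentration (exact p = 0.0159 and adjusted p = 0.0635 for each). In unstimulated cultures *Flt1* held 18.9 of the 27.3 TPM of that sum. It was the 1 of 4 tested endothelial markers that fell at each concentration. The summed markers of oligodendrocyte precursors, neurons, fibroblasts, and T and NK cells had adjusted p-values of 0.218 and above. The neuronal markers went in both directions under that sum. At 30 ng/ml *Tubb3* (0.50) and *Pax6* (0.22) rose and *Calb1* (-0.53) and *Gad1* (-0.49) fell, with 4 of 13 log2 fold changes positive and a median of -0.48, and at 100 ng/ml *Tubb3* rose (0.43) and *Calb1* fell (-0.56), with 4 of 13 positive and a median of -0.20. No astrocyte or microglial marker was at 0 in every culture.

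The 10 genes were also divided by the summed CPM of the astrocyte markers, 7201 ± 311 CPM in unstimulated cultures and 8163 ± 508 CPM at 30 ng/ml. Since that sum was higher at 30 ng/ml, the division lowers the value of every gene by about the same amount, and the ratios only place each gene beside the change of the markers. The log2 ratio at 30 ng/ml to unstimulated cultures was 0.22 for *Fgf2*, 0.00 for *Fgfr1* (0.00021), 0.02 for *Spry2* and 0.03 for *Spry4*. At 100 ng/ml the 4 ratios were 0.12, -0.01, -0.04 and -0.02. On this scale, which adds the spread of the marker sum, the groups overlapped for each of the 10 genes. The share of all genes with such an overlap was not counted. Relative to the 10 markers without *Gfap*, the 4 ratios were 0.25, 0.04, 0.06 and 0.07 at 30 ng/ml. At 100 ng/ml they were 0.22, 0.09, 0.06 and 0.08. For *Etv5* the ratio to all 11 markers was -0.20 at the lower and -0.21 at the higher concentration, and without *Gfap* it was -0.17 and -0.11. These ratios were computed after the data had been seen and were not tested, and the part of the changes in glial and neuronal markers in the rise of the 4 genes was not tested.

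**Figure D3:**
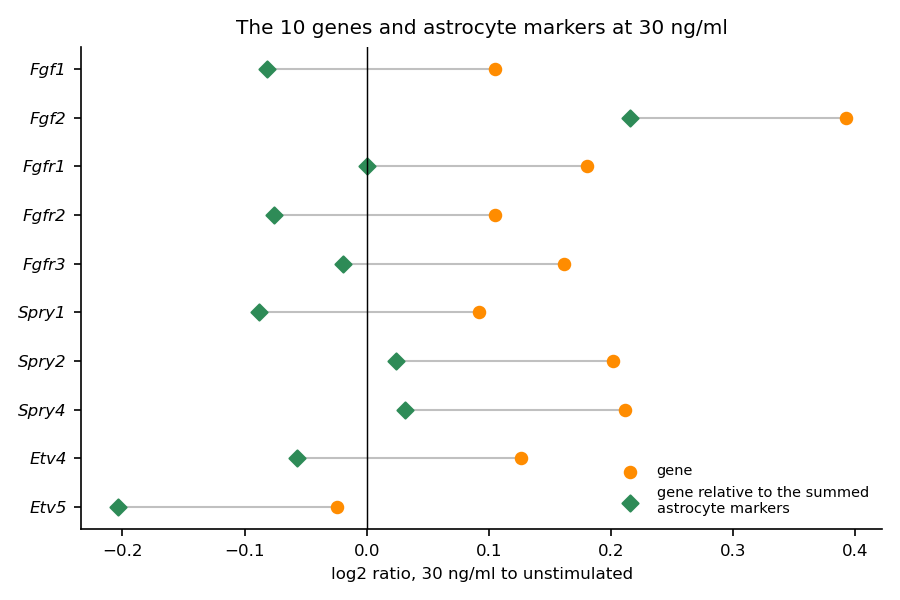
Log2 ratio of 30 ng/ml to unstimulated cultures for each of the 10 genes (circles, edgeR) and for the same gene divided by the summed CPM of 11 astrocyte and Bergmann glia markers (diamonds, difference of mean log2 values); 5 cultures a group. The division moves every gene left by about the same amount; the diamond of *Fgf2* lies at 0.22 and those of *Fgfr1*, *Spry2* and *Spry4* between 0.00021 and 0.03.

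Per length, *Fgfr1* was by far the most abundant of the 10 genes in unstimulated cultures. Its level was 139 TPM ± 7.03 (SD, n = 5), 5.12 times that of *Fgfr2* and 5.57 times that of *Fgfr3* in the mean of the ratios. *Etv5* followed at 42.9 TPM ± 2.00. *Spry2* (29.3 ± 2.73), *Fgfr2* (27.4 ± 2.14) and *Fgfr3* (25.2 ± 2.81) came next, with ranges that overlapped between neighbors. *Fgf1* (19.4 ± 1.04), *Spry1* (18.7 ± 0.770), *Fgf2* (18.4 ± 2.08) and *Etv4* (16.8 ± 2.07) could not be put in order beyond their spread. *Spry4* stood at 5.18 TPM ± 0.268, below all others. The *Fgf2* level in this order leaves out transcripts under 300 bases, for the reason given next.

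Summed over all transcripts, the TPM of *Fgf2* rested in large part on a short entry. Fgf2-207, a retained-intron transcript of 257 bases, has an effective length of 114 bases, so that a few reads give it a high TPM. It held 0.367 to 41.5 reads per culture, or 0.0226% to 1.80% of the *Fgf2* reads, and 1.14% to 48.3% of the *Fgf2* TPM. In unstimulated replicate 4 it added 0.176 TPM and in replicate 1 it added 14.7 TPM. With it, *Fgf2* stood at 26.6 TPM ± 7.58, 38.5 TPM ± 3.18 and 32.0 TPM ± 10.1 in unstimulated cultures and at 30 and 100 ng/ml, and without transcripts under 300 bases at 18.4 ± 2.08, 24.5 ± 2.02 and 22.0 ± 2.71. The FDR of *Fgf2* at 30 ng/ml in limma on log2(TPM + 1) was 0.112 with all transcripts, while the counts, in which the short transcript weighs little, gave the call above.

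**Figure D4:**
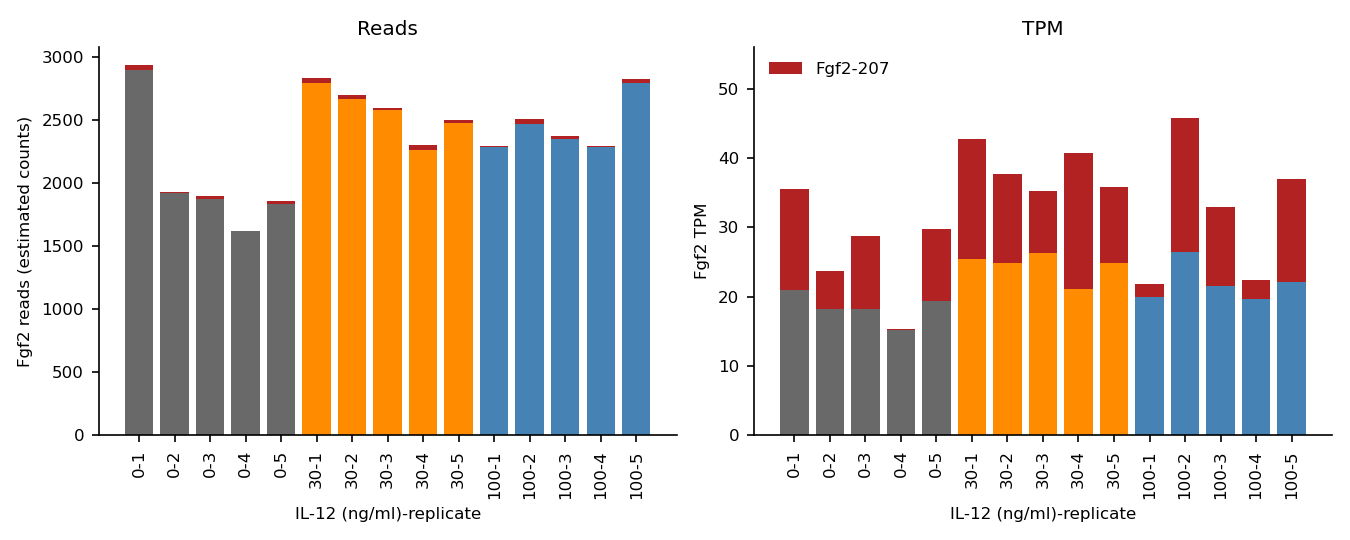
Estimated reads (left) and TPM (right) of *Fgf2* in each of the 15 cultures, as stacked bars from 0, labelled by IL-12 concentration and replicate; red is the transcript Fgf2-207. The red part is at most 1.80% of the reads and up to 48.3% of the TPM.

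Nearly all *Fgf2* reads (98.1% over the 15 cultures) fell to Fgf2-208, a protein-coding transcript of 5973 bases. *Spry2* and *Spry4* each have 1 transcript in the annotation used for the estimates. For *Fgf1*, *Fgfr1*, *Fgfr2*, *Fgfr3*, *Spry1*, *Etv4* and *Etv5* the transcript with the most reads held 95.2%, 51.7%, 44.8%, 41.4%, 62.2%, 55.1% and 81.0%. Its share differed between stimulated and unstimulated cultures in 0 of 14 comparisons (exact permutation tests, two-sided, lowest p = 0.111, all adjusted p = 0.889). The shares of *Spry1* and *Etv4* were loosely estimated: Spry1-203 held 34.0% to 76.3% of the reads in unstimulated cultures and 16.0% to 85.5% at 30 ng/ml, so that a switch between transcripts of these genes could not have been seen. Tested as transcripts among 41466, 0 of the transcripts of the 10 genes passed an FDR of 0.05 in edgeR at either concentration, against 0.359% of all transcripts at 30 ng/ml and 0.559% at 100 ng/ml. Fgf2-208 came closest at 30 ng/ml, with a log2 fold change of 0.39 (SE 0.09, FDR 0.0824 in edgeR).

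*Fgf2* overlaps *Nudt6* on the opposite strand, a gene known as its antisense partner. *Nudt6* stood at 3.21 to 4.76 CPM and *Gm42923*, also on the opposite strand, at 1.49 to 2.66 CPM, both far below *Fgf2* at 58.2 to 98.0 CPM. The libraries were stranded, but whether strand was used in the estimates is not given in the sources used here.

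Of the other genes of the pathway, 88 were listed and 70 could be tested. At 30 ng/ml 3 of the 70 changed (4.29%, 2 higher and 1 lower) and at 100 ng/ml 7 did (10%, 2 higher and 5 lower), shares beside the 7.87% and 9.77% of all genes. Among 20 other FGF ligands, 7 were expressed enough to be tested, with *Fgf13* and *Fgf12*, which act inside the cell, at the top. Of these, 0 changed at either concentration (2 at 100 and 1 at 30 ng/ml at an unadjusted p under 0.05 in edgeR, a p at which all genes were not counted). *Fgf8*, *Fgf17* and *Fgf10* were at 0.04 to 0.05 TPM in unstimulated cultures. Of 9 further receptors and co-receptors, 5 were tested and 1 changed: *Flrt1*, an FGF receptor partner of the FLRT family, fell from 11.3 ± 1.03 to 8.89 ± 0.966 CPM at 100 ng/ml (log2 fold change -0.34, FDR 0.0216 in edgeR), a call lost without unstimulated replicate 1 or 5 or replicate 4 at 100 ng/ml (FDR 0.0534 to 0.0640 in edgeR). *Fgfr4*, *Kl* and *Klb* were at or below 0.19 TPM.

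Of 17 heparan sulfate carriers and editors, 1 changed. *Sdc4*, the gene of the heparan sulfate proteoglycan syndecan-4, rose at 100 ng/ml (0.18, FDR 0.0156 in edgeR) and had a log2 fold change of 0.14 at 30 ng/ml (FDR 0.0674 in edgeR). Of 23 genes of adaptors and the ERK cascade, 4 fell at 100 ng/ml (3.93% of all genes tested fell there), 1 of them also at 30 ng/ml, and 0 rose. These were *Grb2* (adaptor, -0.18 at 100 and -0.20 at 30 ng/ml), *Gab1* (docking protein, -0.22), *Nras* (small GTPase, -0.19) and *Map2k1* (the kinase MEK1, -0.14), with FDRs at 100 ng/ml of 0.0318, 0.0287, 0.0348 and 0.0212 in edgeR. Each of these calls was lost when some single culture was left out. *Grb2* lost its call at 100 ng/ml without unstimulated replicate 1, 3, 4 or 5 or replicate 1 or 3 of that group (FDR 0.0550 to 0.0901 in edgeR) and at 30 ng/ml without unstimulated replicate 3 or 4 or replicate 1 or 5 of that group (0.0511 to 0.0565). *Gab1* lost it without unstimulated replicate 1 or 5 or replicate 1 or 4 at 100 ng/ml (0.0539 to 0.0835), *Nras* without unstimulated replicate 1, 3 or 5 or replicate 1 or 3 at 100 ng/ml (0.0522 to 0.0948), and *Map2k1* without replicate 5 at 100 ng/ml (0.0511).

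Of 18 other feedback inhibitors and targets tested, 2 rose at 30 ng/ml. *Ccnd1*, the gene of cyclin D1, rose at both concentrations, by 0.32 at 30 ng/ml (FDR 0.00198 in edgeR) and by 0.23 at 100 ng/ml (FDR 0.0136 in edgeR), from 529 ± 19.0 CPM to 662 ± 46.5 and 622 ± 44.5 CPM. *Phlda1*, known as a gene induced by growth factors, rose by 0.22 at 30 ng/ml (FDR 0.0243 in edgeR), and at 100 ng/ml its value was 0.004 (FDR 0.974 in edgeR). The rise of *Phlda1* was lost without unstimulated replicate 1, 3, 4 or 5 or replicate 3 or 5 at 30 ng/ml (FDR 0.0520 to 0.0686 in edgeR). *Dusp6*, the ERK phosphatase that is the best known ERK target beside the Sprouty genes, and *Egr1*, an immediate early gene, are named here after their values were seen. The log2 fold changes of *Dusp6* were -0.20 at the lower (FDR 0.130 in edgeR) and -0.24 at the higher concentration (FDR 0.0629 in edgeR), and those of *Egr1* -0.27 (FDR 0.437 in edgeR) and -0.60 (FDR 0.0566 in edgeR). Neither passed the threshold at either concentration alone, and with both combined *Dusp6* fell (-0.22, FDR 0.0420 in edgeR) while *Egr1* was at -0.43 (FDR 0.0914 in edgeR). In the list of 18 as a whole, the log2 fold change was positive in 9 genes at 30 ng/ml and in 8 at 100 ng/ml, with medians of 0.0009 and -0.045.

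**Figure D5:**
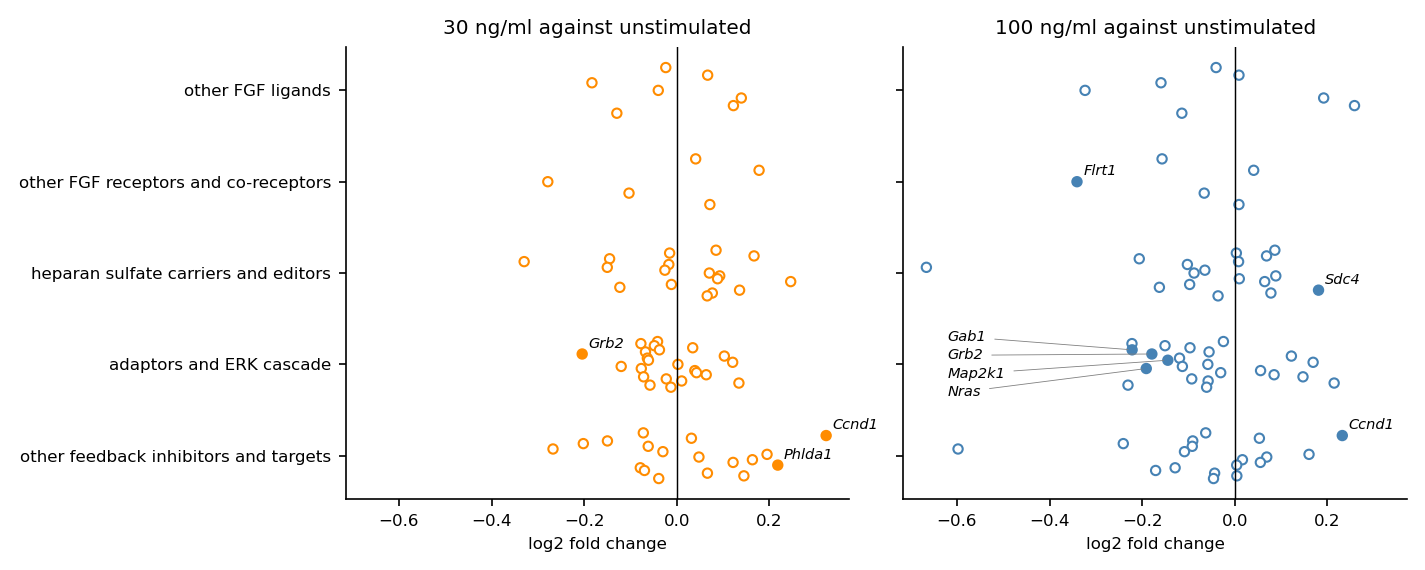
Log2 fold change against unstimulated cultures for 70 other FGF pathway genes in 5 lists, at 30 ng/ml (left) and 100 ng/ml (right) IL-12; each point is a gene, filled and named where its FDR in edgeR is under 0.05. *Ccnd1* is filled on both sides (0.32 and 0.23), and the 4 filled genes of the ERK cascade at 100 ng/ml lie between -0.22 and -0.14.

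The genes whose level followed *Fgf2* most closely over the 15 cultures were *Osmr*, the receptor gene of oncostatin M (Pearson's r 0.919 in log2 CPM), *Mfap3l* (0.918), *Add3* (0.917), *Gpam* (0.913) and *Cdh8* (0.912). After the group means were taken off, their r lay between 0.806 and 0.870. Of the other 9 genes, *Spry2* was closest (r 0.761, rank 182 of 15359 genes), followed by *Fgfr3* (0.557), and *Etv5* was the only one with a negative value (-0.253). After the group means were taken off, r with *Fgf2* was positive for *Spry2* (0.392), *Fgf1* (0.318), *Fgfr2* (0.175) and *Fgfr3* (0.128) and negative for *Fgfr1* (-0.535), *Etv4* (-0.426), *Spry4* (-0.414), *Spry1* (-0.278) and *Etv5* (-0.197). Of the 3 other genes that rose at 30 ng/ml, *Spry2* alone thus had a positive value within groups. In replicate 2 at 100 ng/ml *Fgf2* was at its highest and *Fgfr1* at the lowest of its group. The 15 points share the groups and the scaling of the libraries, and the values are descriptions.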

How the data were processed

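RNA of 15 cultures was sequenced from stranded poly(A) libraries. The methods describe STAR 2.7.8a and FeatureCounts per gene, but the deposited files hold, per the file headers, length, effective length, estimated counts and TPM for 121798 transcripts, made by a program not given in the sources used here. The planned gene counts were therefore made by summing the deposited estimated counts with GENCODE M39 (99.0% of transcripts matched, unmatched 0.677% to 0.712% of reads) and rounding. The deposited TPM were summed likewise and served for levels, marker lists and limma. The 10 genes, the lists and the motifs were chosen with earlier results of these data known. Named genes are the 10, up to 5 genes of each list with an FDR under 0.05 at either concentration, and the 5 closest to *Fgf2* by r. Outside this rule, *Dusp6* and *Egr1* were named after their values were seen.

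The 15360 genes that reached 1 CPM in 2 or more cultures were scaled with TMM (factors 0.981 to 1.02) and tested in 1 fit of 3 groups with edgeR 4.0.16's quasi-likelihood test, with Benjamini-Hochberg adjustment over all genes and an FDR threshold of 0.05. The biological coefficient of variation was 8.00%. SE is the log2 fold change divided by the root of F. Single values were compared by exact permutation. Tools were R 4.3.3, limma 3.58.1, DESeq2 1.42.0 and Python 3.11.15. On simulated counts for 100 ng/ml against unstimulated over 15360 genes, 32.7% of rises of 0.25 and 98% of rises of 0.5 (log2) were recovered, with 0.0534% of unchanged genes called. Alternatives were RLE and library-size scaling, DESeq2, the likelihood-ratio test, other filters, only the groups compared, a replicate block, limma on log2(TPM + 1) and each culture left out. The limma fit on transcripts of at least 300 bases was chosen after seeing the data. The 30 replicate pairs differed by 5.27 to 31.2 times sampling noise (chi-square per degree of freedom), so no library was counted as a duplicate. Columns of the authors' own comparisons were not in the files used.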

Additional observations from a re-analysis of the deposited data

Results flagged for a closer look

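Of 30 sets of 5 cultures (10 genes in 3 groups), 1 held a culture far from the others. *Fgf1* stood at 58.3 CPM in replicate 1 at 30 ng/ml, whereas the other 4 cultures of that group lay between 44.7 and 45.8 CPM. The gap was 0.919 of the range, above the critical value of 0.71 for 5 samples, which chance passes in about 5% of sets. The call of *Fgf1* did not depend on it: its FDR at 30 ng/ml in edgeR was 0.359 with that culture and 0.813 without it.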

How the results depend on the processing

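At 30 ng/ml the 4 calls held for *Spry2* in 25 of 25 settings, *Fgf2* in 24, *Fgfr1* in 23 and *Spry4* in 17 (highest FDR 0.0709). The number of the 10 genes called was 4, but 1 by limma on log2(TPM + 1) and 2 with transcripts of at least 300 bases, and 3 to 5 without each culture. At 100 ng/ml it was 0, but 1 by the likelihood-ratio test (*Fgf2*, FDR 0.0423), and 0 to 1 without each culture (*Fgfr1*, FDR 0.0248, without replicate 2 at 100 ng/ml). For both concentrations together it was 4, but 2 without a filter on low counts, 0 by limma and 1 by limma with transcripts of at least 300 bases, and 1 to 4 without each culture (1 without unstimulated replicate 3, 2 without unstimulated replicate 4 or replicate 3 at 100 ng/ml). In that comparison 1832 of 15360 genes were called, and 1421 of 28762 without the filter. Limma called 1203, and 1257 with transcripts of at least 300 bases. Leaving out unstimulated replicate 3 or 4 gave 1219 and 1333 genes, and replicate 3 at 100 ng/ml gave 1455. Between concentrations it was 0 throughout. Transcripts called at 30 ng/ml were 0, but 1 by the likelihood-ratio test and with at least 10 counts in every culture, and 0 to 1 without each culture (1 without replicate 2 at 100 ng/ml). Other pathway genes called at 100 ng/ml were 7, but 12 by DESeq2, 11 by the likelihood-ratio test, 4 without the filter and 3 with only the groups compared, and 3 to 17 without each culture (17 without replicate 2 at 100 ng/ml, 4 without replicate 1 at 100 ng/ml, 3 without unstimulated replicate 1 or 5). Over all genes, calls at 100 ng/ml were 1500 of 15360, 1964 by DESeq2 and 1857 by the likelihood-ratio test. They were 1075 of 28762 without the filter and 946 of 15230 with only the groups compared. Leaving out replicate 2 or 1 at 100 ng/ml gave 2932 and 953 genes, and unstimulated replicate 1 or 5 gave 946 and 940. At 30 ng/ml the other pathway genes called were 3, but 5 with library size alone, 6 by DESeq2, by the likelihood-ratio test and by limma with or without the short transcripts, 9 with only the groups compared, and 1 to 7 without each culture (7 without replicate 2 at 100 ng/ml, 6 without unstimulated replicate 2, 1 without unstimulated replicate 3 or 4 or replicate 5 at 30 ng/ml). All genes called there were 1209, with 1411 by library size alone, 1668 by DESeq2 and 1594 by the likelihood-ratio test. Limma gave 867 with and 883 without the short transcripts, and only the groups compared gave 1536 of 15228. Leaving out replicate 2 at 100 ng/ml gave 1668 and replicate 5 at 30 ng/ml 754. Unstimulated replicates 2, 3 and 4 left out gave 1552, 673 and 794. Marker lists past the threshold were 0, and 0 to 3 without each culture (3 without unstimulated replicate 2 or replicate 3 at 100 ng/ml). The cause was not tested.

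Near 0, signs changed by limma for *Etv5* at 30 ng/ml (0.0096), *Fgf1* (-0.066) and *Etv4* (-0.032) between concentrations, *Gab1* at 30 ng/ml (0.021) and *Phlda1* at 100 ng/ml (-0.020), the values being the same without short transcripts, and for *Phlda1* also with RLE factors (-0.000368) and DESeq2 (-0.000178). Without each culture, *Etv5* at 30 ng/ml ranged from -0.0521 to 0.000127, *Etv4* between concentrations from -0.00758 to 0.0739, *Gab1* at 30 ng/ml from -0.0753 to 0.0050 and *Phlda1* at 100 ng/ml from -0.0199 to 0.0409. Of 990 values of the 10 genes, 939 kept direction and side of the threshold, 37 lost a call, 6 gained one and 8 changed sign.

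Whether equal replicate numbers mark a shared preparation is not known. Of 15 same-numbered pairs, 4 correlated above 0.1 (-0.183 to 0.264), and 5 of 15 cultures correlated best with their own number. With a replicate block, 4 of the 10 genes were called at 30 ng/ml, 0 at 100 ng/ml and 3 for both together (*Spry4*, FDR 0.0612), and 2 and 7 of the other pathway genes at 30 and 100 ng/ml. At this depth and spread, small changes of the other 6 genes could have been missed.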
